A study of Mus musculus with 66 samples.

Results

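Aminoacyl-tRNA synthetases are described here in mouse small intestinal organoids grown in 3 media. The rows were taken by gene symbol from the deposited expression table, a symbol ending in 2 marking the mitochondrial enzyme of an amino acid. This gave 36 genes of the 8978 gene symbols in the table, 20 cytosolic and 16 mitochondrial, and 38 of its 9481 transcripts, because Kars and Sars2 each had 2 rows. All 38 transcripts passed the filter for testing, which asked for a count above 0 in at least 4 of the 12 RNA libraries, and none was left out.

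Organoids are self-organising epithelial cultures, here carrying the Lgr5 GFPDTR/+ reporter allele according to the study's methods. ENR medium holds EGF, Noggin and R-Spondin-1 and keeps stem cells and differentiated cells side by side. CV cultures were grown in ENR with 3 µM CHIR99021, an inhibitor of GSK3 that raises Wnt signalling, and 1 mM valproic acid, an inhibitor of histone deacetylases, which enriches stem cells. EN cultures lacked R-Spondin-1, which depletes stem cells and enriches enterocytes, and CV and EN were also grown for different times before harvest. RNA was sequenced from 4 libraries per culture, with 5630951 to 8859744 counts each, and ATAC and histone marks were read as a score per region in 4 and 3 libraries per culture. No label states that libraries came from separate animals or cultures, so p-values measure only the spread between these libraries, which may be technical. In bulk libraries, fewer cells of a type and less RNA per cell cannot be told apart.

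An aminoacyl-tRNA synthetase joins an amino acid to its tRNA, the step at which the genetic code is read into protein. The cytosol and the mitochondria use separate enzymes for most amino acids, all of them encoded in the nucleus, while Gars and Kars each serve both places and glutamine has no mitochondrial enzyme of its own. The enzymes fall into 2 structural classes, I and II. In animals 8 of the cytosolic enzyme genes (Eprs, Iars, Lars, Qars, Mars, Kars, Rars and Dars) form the multisynthetase complex, held together by the scaffold proteins Aimp1, Aimp2 and Eef1e1. Several cytosolic synthetase genes are known targets of Atf4, the transcription factor of the amino acid response, which binds a composite element shared with C/EBP factors. Dividing intestinal crypt cells are known for a high rate of protein synthesis.

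The composite element is the sequence in question for these promoters, so the windows of the 5 members that held it are printed, with Farsb, which held only the E-box, and Qars, which held neither. Sequences are RefSeq's for GRCm38.p6, 70 bases before the start site and 26 from it on, written 5′ to 3′ along the gene, with matches to TGATGNAA or CACGTG on either strand in capitals. The windows lie at chr8:111033772-111033867 on the forward strand (Aars), chr6:55037931-55038026 on the forward strand (Gars), chr13:49682060-49682155 on the forward strand (Iars), chr15:11399633-11399728 on the reverse strand (Tars), chr4:129189833-129189928 on the forward strand (Yars), chr1:78488872-78488967 on the reverse strand (Farsb) and chr9:108507935-108508030 on the forward strand (Qars).
Aars: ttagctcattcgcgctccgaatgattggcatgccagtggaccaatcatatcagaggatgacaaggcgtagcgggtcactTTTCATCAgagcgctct
Gars: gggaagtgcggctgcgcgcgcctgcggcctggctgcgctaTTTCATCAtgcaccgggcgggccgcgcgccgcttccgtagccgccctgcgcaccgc
Iars: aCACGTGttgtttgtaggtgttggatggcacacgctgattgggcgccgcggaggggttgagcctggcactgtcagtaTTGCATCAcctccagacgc
Tars: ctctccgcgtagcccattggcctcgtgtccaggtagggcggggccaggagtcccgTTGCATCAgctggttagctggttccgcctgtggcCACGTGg
Yars: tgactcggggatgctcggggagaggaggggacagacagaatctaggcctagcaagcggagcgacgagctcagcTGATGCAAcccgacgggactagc
Farsb: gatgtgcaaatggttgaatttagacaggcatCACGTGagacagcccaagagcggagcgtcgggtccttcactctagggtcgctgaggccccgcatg
Qars: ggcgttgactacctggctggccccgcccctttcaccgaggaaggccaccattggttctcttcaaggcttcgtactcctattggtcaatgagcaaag

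Promoters of 300 bases, 250 before the start site and 50 after it, were at hand for 27 of the 36 genes. The letters TGATGNAA stood in 5 of 13 cytosolic promoters (Aars, Gars, Iars, Tars and Yars) and in 0 of 14 mitochondrial ones, and in 4.51% of 27025 genes with a promoter of this length. In Gars the match began 30 bases before the start site and in Tars 15 before, while in Yars it began 3, in Iars 7 and in Aars 9 bases after it. Aars held another TGATGNAA 112 bases before the start site, outside the window shown. The E-box CACGTG stood in 4 cytosolic promoters (Aars, Farsb, Iars and Tars) and in 1 mitochondrial promoter (Ears2), against 8.09% of all genes. Both motifs overlapped in 3 of all 32851 promoters. A match is a description of letters, and binding at these promoters was not tested.

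Summed over the members, cytosolic synthetase mRNA was highest in CV and lowest in EN on the TPM scale. TPM is a share, corrected for length, of the transcripts in the study's index, which held only those whose proteins had been quantified. The cytosolic sum was 2274 ± 32.7 TPM in CV, 1725 ± 22.0 in ENR and 1002 ± 52.2 in EN (mean ± SD, n = 4 each). The mitochondrial sum was 495 ± 10.7 TPM in CV, 492 ± 9.40 in ENR and 374 ± 18.5 in EN. Over all 9288 transcripts tested, the median change of log2(TPM + 1) from CV to EN was -0.34, so a lower value in EN was common on this scale. No cytosolic value of 1 culture overlapped those of another, and the mitochondrial sums of CV and ENR overlapped while those of EN lay below both. On the deposited mRNA copies, a rescaling of TPM to spike-ins, the cytosolic sums were 1485 ± 211, 1159 ± 406 and 1408 ± 256 copies in CV, ENR and EN and overlapped, and the mitochondrial sums were 297 ± 55.5, 289 ± 86.1 and 501 ± 82.0 copies, highest in EN. The order of the sums thus depended on the scale. Of the mitochondrial copies, Lars2 (leucine) alone held 23.5 ± 6.34 in CV, 25.4 ± 6.79 in ENR and 130 ± 38.1 in EN. A sum of copies without Lars2 was not taken, so the rise is not shown for the other mitochondrial members as a group.

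**Figure D1:**
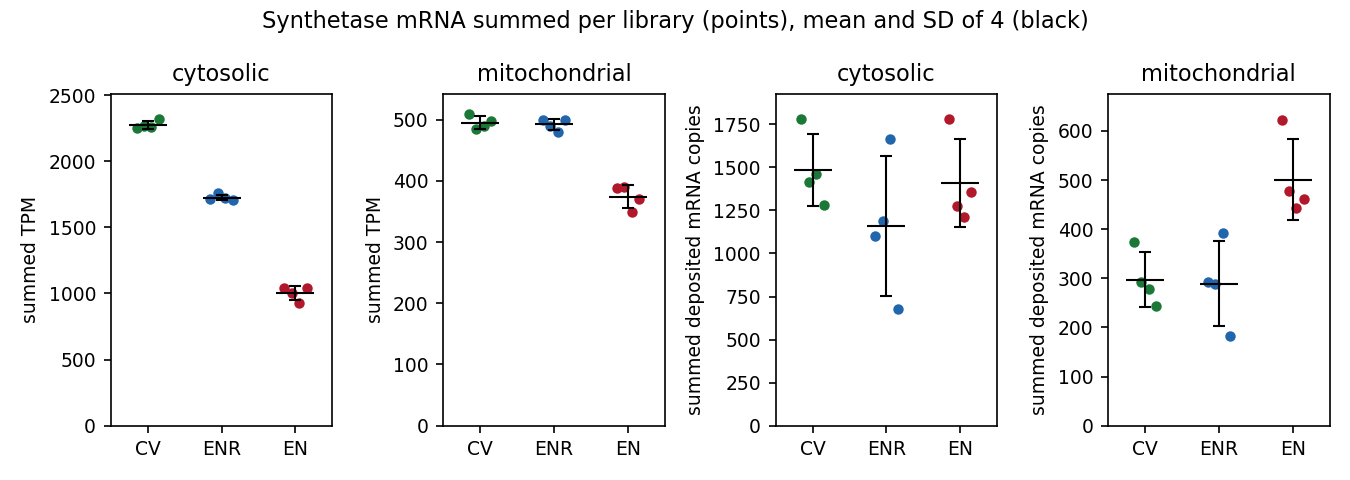
Summed level of the cytosolic and the mitochondrial synthetase transcripts in each of the 12 RNA libraries (points, with mean ± SD in black, n = 4 per culture), in TPM and in deposited mRNA copies. Cytosolic sums fall from 2250.2 to 2322 TPM in CV to 927 to 1038 in EN, whereas on the copies scale the cytosolic sums of the 3 cultures overlap and the mitochondrial sums are highest in EN. Lars2 alone holds a mean of 23.5, 25.4 and 130 of the mitochondrial copies in CV, ENR and EN.

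A ratio within a library does not depend on how libraries are scaled to each other, although the copies raise TPM to a power that differs by library. The cytosolic sum divided by the mitochondrial sum was 4.59 ± 0.118 in CV, 3.50 ± 0.0943 in ENR and 2.68 ± 0.0932 in EN on TPM. On copies the same ratio was 5.03 ± 0.269, 3.97 ± 0.267 and 2.81 ± 0.119. On both scales the values of the 3 cultures did not overlap, with CV above ENR and ENR above EN in every library. These ratios were chosen after the values were seen and are given without a test. Part of the fall from ENR to EN lies in Lars2, which went from 44.4 ± 9.59 to 88.9 ± 19.0 TPM within the mitochondrial sum. Without Lars2 that sum was 456 TPM in CV, 448 in ENR and 286 in EN. Ratios without Lars2 were not taken.

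Among cytosolic enzymes, Nars (asparagine) had the highest TPM in each culture, 248 ± 4.39 in CV, 171 ± 8.10 in ENR and 126 ± 9.45 in EN. Qars (glutamine) stood at place 3 in CV and place 2 in ENR and EN of the 21 cytosolic transcripts. Gars (glycine) went from place 2 in CV to place 7 in EN, and Vars (valine) from place 15 to place 21, the lowest. Among the 17 mitochondrial transcripts, Iars2 (isoleucine) led in CV with 113 ± 3.09 TPM, and Lars2 (leucine) led in EN with 88.9 ± 19.0 TPM after place 5 in CV with 39.1 ± 4.33. Over 4 libraries, the median coefficient of variation of the 36 transcripts other than Sars2 was 4.46% for CV, 4.76% for ENR and 6.85% for EN.

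The comparison of EN with CV asks how the enzymes differ between the stem cell-depleted and the stem cell-enriched culture. Of 21 cytosolic transcripts, 20 were lower in EN, 0 were higher, and Qars did not pass the test (edgeR's quasi-likelihood test, Benjamini-Hochberg adjusted p under 0.01). DESeq2, and edgeR at an unadjusted p under 0.05, gave the same counts of 20 lower and 0 higher. The background was high, since 76.4% of the 9288 transcripts tested changed, 41.2% lower in EN and 35.2% higher. The median log2 fold change was -1.10 over the cytosolic transcripts and -0.08 over all transcripts tested. Of 17 mitochondrial transcripts, 8 were lower, 3 were higher (Lars2, Fars2 and Rars2) and 6 passed in neither direction, with a median of -0.23. On the CPM scale, a count relative to the TMM-normalized library size, the 4 EN values lay below all 4 CV values for 20 cytosolic and 8 mitochondrial transcripts (41.6% of all transcripts), and above them for 0 and 3 (34.9%).

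Scaling set these directions in part. With library sizes set by spike-ins, which moved the median of all transcripts to -0.49, 21 cytosolic transcripts were lower and 0 higher, and 10 mitochondrial ones were lower and 1 higher. On the deposited copies the median of all transcripts was +0.62, 4 cytosolic transcripts were lower and 0 higher, and 2 mitochondrial ones were lower and 5 higher. In that fit Aars, Dars, Farsa, Nars, Rars, Sars, Wars, Iars2, Pars2 and Tars2 had a positive sign, none of them past the test. Background shares on copies were 13.5% lower and 47.6% higher, and 46.2% lower and 15.9% higher with spike-ins. The cytosolic median, -1.50 with spike-ins and -0.38 on copies, stayed below the median of all transcripts on each of these scales.

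**Figure D2:**
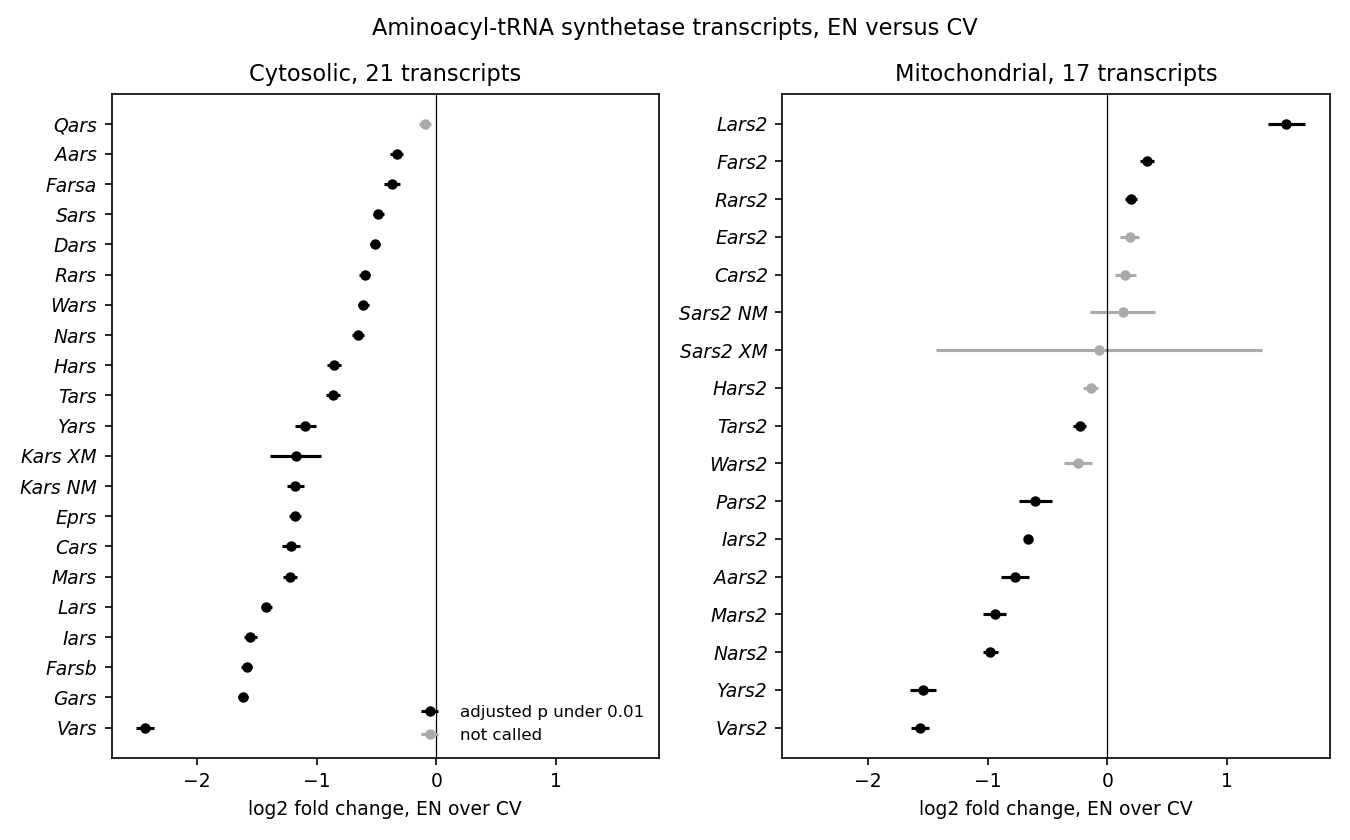
Log2 fold change of each synthetase transcript, EN against CV, from edgeR on TMM-normalized counts (points, with bars for the standard error, 4 libraries per culture), cytosolic in the left panel and mitochondrial in the right, black where the adjusted p was under 0.01 and grey where not. All 20 changed cytosolic transcripts lie below 0, from -0.33 (Aars) to -2.44 (Vars), and 3 mitochondrial ones lie above it, led by Lars2 at 1.50, while on the copies scale Aars, Dars, Farsa, Nars, Rars, Sars and Wars have a positive sign.

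Vars, the valine enzyme (NM_011690.3; mm9 chr17:35137932-35153267, forward strand), fell the most of all members. Its CPM was 140.3, 149, 148 and 167 in the 4 CV libraries, 144, 139, 148 and 160.2 in ENR and 26.4, 29.5, 25.7 and 30.1 in EN. CV and ENR overlapped, and every EN value lay far below both. The fitted log2 fold change of EN over CV was -2.44 ± 0.072 (SE, adjusted p = 6.80e-14), a 5.41-fold lower level.

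Gars, the glycine enzyme (NM_180678.3; chr6:54987995-55029498, forward strand), had CPM of 303, 307, 306 and 282 in CV, 203, 194, 197 and 182 in ENR and 94.7, 99.1, 96.0 and 101 in EN. No values overlapped, with CV highest and EN lowest. Its log2 fold change of EN over CV was -1.62 ± 0.044 (SE, adjusted p = 2.52e-14).

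Farsb and Farsa encode the β and α subunits of a single phenylalanine enzyme. For Farsb (NM_001278075.1; chr1:78414533-78485434, reverse strand), CPM was 195, 194, 194 and 208 in CV, 178, 185, 175 and 184 in ENR and 66.5, 63.4, 61.2 and 71.1 in EN. Its log2 fold change was -1.59 ± 0.048 (SE, adjusted p = 7.27e-14), with EN below every other library. Farsa (NM_025648.3; chr8:87380888-87393156, forward strand) had 67.5 ± 2.36 CPM in CV and 52.3 ± 4.20 in EN (mean ± SD, n = 4), a log2 fold change of -0.37 ± 0.065 (SE, adjusted p = 7.88e-05). Within libraries the ratio of Farsb to Farsa in TPM was 2.49 to 2.63 in CV, 2.11 to 2.54 in ENR and 1.00 to 1.34 in EN, so EN stood apart while CV and ENR overlapped. This ratio was picked after its values were seen and was not tested.

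**Figure D3:**
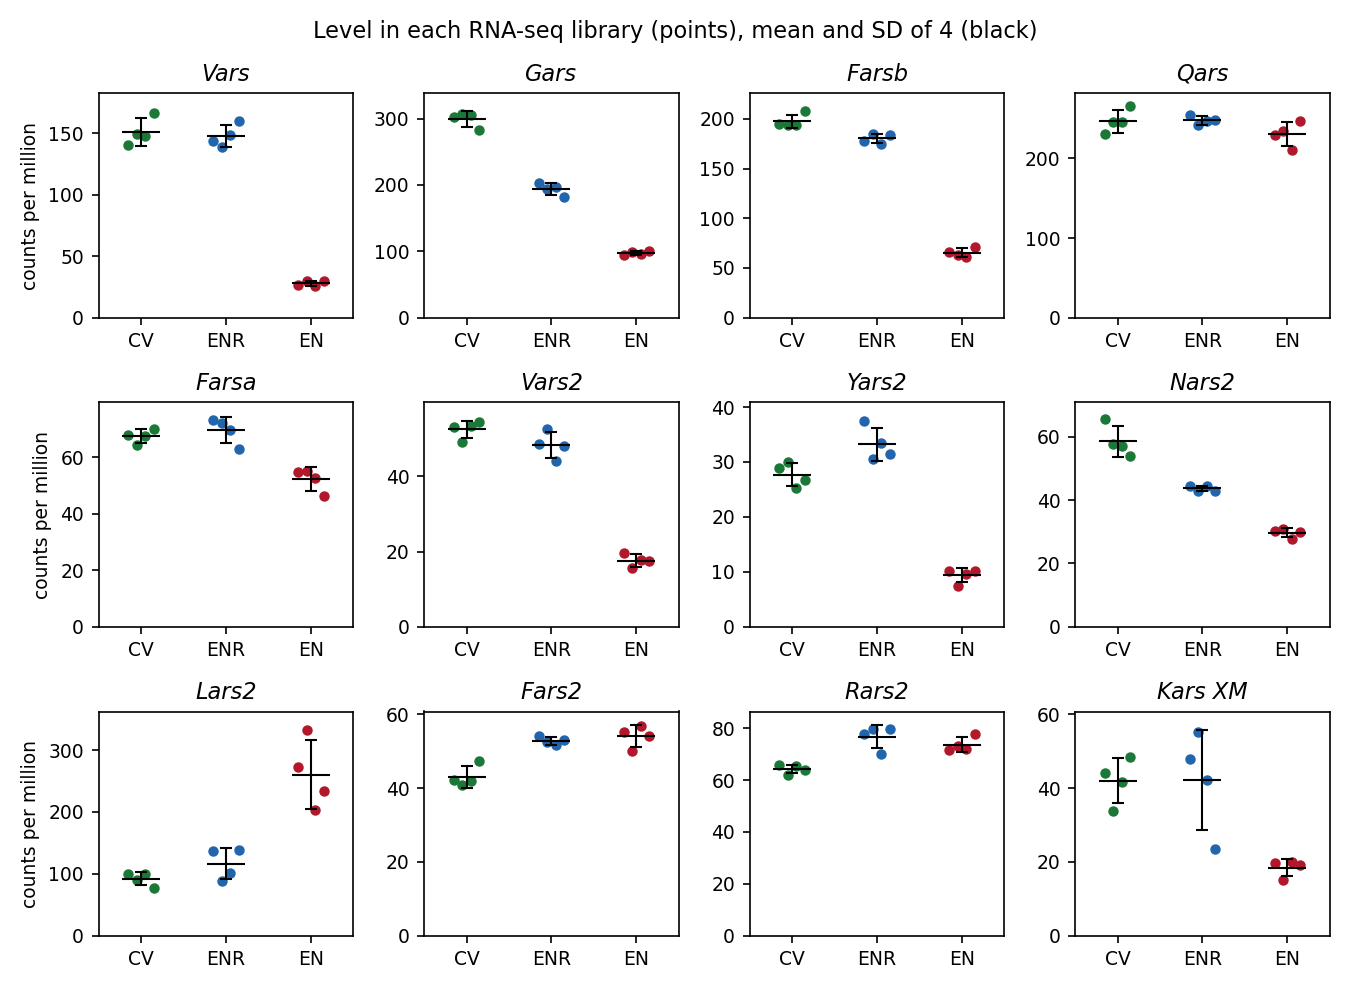
CPM after TMM normalization of 12 synthetase transcripts in each RNA library (points, with mean ± SD of the 4 libraries of a culture in black, each panel on its own axis from 0). Vars, Gars and Farsb have all EN values below CV, Qars overlaps between the cultures, and Lars2 has all EN values above CV, while Fars2 and Rars2 are higher in EN than in CV on this scale and have the opposite sign with spike-in library sizes.

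Of the multisynthetase complex, 8 of 9 transcripts were lower in EN, with a median log2 fold change of -1.18, against -0.86 for the 12 cytosolic transcripts outside the complex, of which 12 were lower, a difference that was not tested. Qars, the glutamine enzyme, was the exception among complex members, with CPM of 230.3, 245, 245 and 265 in CV, 254, 242, 247 and 248 in ENR and 229.8, 234, 211 and 247 in EN. These ranges overlapped, and the log2 fold change was -0.10 ± 0.050 (SE, adjusted p = 0.0892). Qars did pass as lower with spike-in library sizes (-0.52, edgeR adjusted p = 0.00768) and with limma on log2(TPM + 1) (-0.41, adjusted p = 8.02e-06). The median of all transcripts was close to these values, -0.49 with spike-ins and -0.34 on log2(TPM + 1).

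Iars, the isoleucine enzyme, showed the largest fall in the complex, with CPM of 144, 134, 131 and 129.6 in CV, 117, 128, 123 and 130.4 in ENR and 45.8, 47.7, 44.6 and 45.2 in EN. EN lay below the other cultures, which overlapped, at -1.56 ± 0.052 (SE, adjusted p = 2.43e-13) from CV. Of the 4426 bases of an Iars transcript in the GENCODE annotation, 61.3% matched another place in the genome at 90% identity or more over at least 100 bases, mostly coding sequence, so reads could be shared with such copies. Lars, the leucine enzyme, had CPM of 265, 259.7, 260.1 and 253 in CV, 210.0, 228, 218 and 204 in ENR and 90.5, 101, 96.0 and 100.5 in EN, 3 groups without overlap and a log2 fold change of -1.42 ± 0.045 (SE, adjusted p = 1.57e-13).

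Mars, the methionine enzyme, gave CPM of 98.6, 98.1, 101 and 117 in CV, 71.4, 74.8, 73.6 and 73.1 in ENR and 44.4, 45.4, 44.2 and 43.9 in EN. No values overlapped between cultures, and the log2 fold change of EN over CV was -1.23 ± 0.059 (SE, adjusted p = 2.22e-11). Eprs, a fused enzyme that charges both glutamate and proline, had CPM of 378, 382, 389 and 389.9 in CV, 344, 341, 349.7 and 333 in ENR and 174, 165, 149 and 187 in EN. EN was lowest without overlap, at -1.19 ± 0.051 (SE, adjusted p = 6.34e-12) from CV.

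Kars, the lysine enzyme, had 2 rows with nearly the same change and different levels. The row NM_053092.3 had CPM of 152, 155, 148 and 147 in CV, 115, 123, 128 and 149.6 in ENR and 66.7, 64.9, 63.5 and 70.8 in EN, a log2 fold change of -1.18 ± 0.069 (SE, adjusted p = 2.61e-10). The row XM_006531519.2 had 44.1, 33.9, 41.6 and 48.3 in CV, 47.9, 55.3, 42.1 and 23.4 in ENR and 19.6, 15.0, 20.0 and 19.1 in EN, at -1.18 ± 0.21 (SE, adjusted p = 9.70e-05). EN was below CV and ENR in both rows. kallisto splits reads between such rows, so their single levels are uncertain.

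Rars and Dars, the arginine and aspartate enzymes, changed less than the rest of the complex that passed. Rars had CPM of 192, 209, 211 and 212 in CV, 154, 161, 156 and 159 in ENR and 135, 129, 129 and 149 in EN, and a log2 fold change of -0.60 ± 0.049 (SE, adjusted p = 1.37e-08). Dars had 156, 162, 165 and 155 in CV, 173, 177, 175 and 170.0 in ENR and 109, 120.3, 107 and 109.7 in EN, at -0.51 ± 0.041 (SE, adjusted p = 1.13e-08). For Dars the ENR values were all above the CV values, an order found in no other cytosolic transcript.

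The remaining 9 cytosolic genes, each outside the complex, all fell in EN against CV. They ranged from -0.33 in Aars (alanine) to -1.22 in Cars (cysteine), with Yars (tyrosine) at -1.10, Tars (threonine) at -0.86, Hars (histidine) at -0.86, Nars at -0.66, Wars (tryptophan) at -0.61, Sars (serine) at -0.49 and Farsa as above. By class, 9 of 10 cytosolic class I transcripts fell, with a median of -1.20, and 11 of 11 of class II fell, with a median of -0.86.

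Lars2, the mitochondrial leucine enzyme (NM_153168.2; chr9:123276058-123371782, forward strand), rose while its cytosolic counterpart fell. Its CPM was 100.3, 90.0, 100.5 and 77.8 in CV, 137, 89.2, 101 and 139 in ENR and 273, 333, 203 and 234 in EN. All EN values exceeded all others, CV and ENR overlapped, and the spread within EN was wide, with a coefficient of variation of 21.5%, the highest in that culture after the low-count rows of Sars2 (29.1% and 200.0%). The log2 fold change was 1.50 ± 0.16 (SE, adjusted p = 2.74e-07), a 2.82-fold higher level, and it stayed a call with spike-in library sizes (+1.08) and on copies (+2.41). The ratio of Lars2 to Lars within libraries was 0.351 ± 0.0356 in CV, 0.541 ± 0.140 in ENR and 2.66 ± 0.546 in EN in TPM. After its coding sequence the Lars2 transcript holds 398 bases, 10.3% of its length, that match other places in the genome, and the part of such reads in the rise was not tested. Without Lars2 the mitochondrial sum was 456 ± 10.6 TPM in CV, 448 ± 6.10 in ENR and 286 ± 7.55 in EN.

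Fars2 and Rars2, the mitochondrial phenylalanine and arginine enzymes, were the other rises and were small. Fars2 (XM_011244345.2; chr13:36209280-36629461, forward strand) had CPM of 42.2, 40.7, 41.9 and 47.2 in CV, 54.0, 52.4, 51.6 and 53.1 in ENR and 55.2, 49.9, 56.9 and 54.0 in EN, so that EN lay above CV and overlapped ENR, with a log2 fold change of 0.33 ± 0.059 (SE, adjusted p = 8.87e-05). Rars2 (NM_181406.3; chr4:34562206-34607416, forward strand) had 65.9, 62.1, 65.2 and 64.0 in CV, 77.8, 79.5, 70.0 and 79.7 in ENR and 71.6, 73.0, 72.1 and 77.9 in EN, at 0.20 ± 0.052 (SE, adjusted p = 0.00255). Without EN replicate 4 Rars2 no longer passed the test (0.17, adjusted p = 0.0112), and with spike-in library sizes both had the opposite sign, -0.092 for Fars2 and -0.22 for Rars2. With limma on log2(TPM + 1) Fars2 did not pass (0.0081, adjusted p = 0.90) and Rars2 had the opposite sign (-0.12, adjusted p = 0.0275).

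Vars2, Yars2 and Nars2 had the largest mitochondrial falls. Vars2, for valine (NM_175137.4; chr17:35792579-35804537, reverse strand), had CPM of 53.2, 49.3, 53.4 and 54.5 in CV, 48.6, 52.5, 44.0 and 48.2 in ENR and 19.6, 15.6, 17.8 and 17.4 in EN, and a log2 fold change of -1.57 ± 0.075 (SE, adjusted p = 2.18e-11). Yars2, for tyrosine (NM_198246.2; chr16:16303058-16309733, forward strand), had 29.0, 29.9, 25.3 and 26.6 in CV, 37.4, 30.6, 33.4 and 31.5 in ENR and 10.2, 7.49, 9.63 and 10.2 in EN, at -1.54 ± 0.11 (SE, adjusted p = 1.84e-09). Nars2, for asparagine (XM_006507817.3; chr7:104100015-104213271, forward strand), had 65.6, 57.7, 57.1 and 54.0 in CV, 44.4, 43.0, 44.3 and 43.0 in ENR and 30.2, 31.0, 27.8 and 29.9 in EN, at -0.98 ± 0.065 (SE, adjusted p = 1.21e-09). In all 3 the EN values lay below those of both other cultures, and Nars2 was the 1 mitochondrial transcript that passed the test as higher in CV than in ENR.

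The other mitochondrial falls were Mars2 (-0.94), Aars2 (-0.77), Iars2 (-0.66), Pars2 (-0.60) and Tars2 (-0.23), the last of which did not pass with DESeq2 (-0.17, adjusted p = 0.0343) or with edgeR on CV and EN alone (-0.17, adjusted p = 0.0196). The 6 transcripts that passed in neither direction were Cars2 (0.15, adjusted p = 0.111), Ears2 (0.19, 0.0420), Hars2 (-0.14, 0.0519), Wars2 (-0.25, 0.0622) and both rows of Sars2. With limma on log2(TPM + 1) Hars2 (-0.44, adjusted p = 1.66e-05) and Wars2 (-0.48, adjusted p = 0.000475) did pass as lower. On that scale 4976 of 9288 transcripts were lower and 2263 higher, with a median of -0.34. With edgeR on CV and EN alone Ears2 passed as higher (0.25, adjusted p = 0.00732). Sars2 was the lowest of the members, with 3.33 ± 0.919 CPM in CV for the row NM_023637.3, where 14 to 60 counts per library gave a log2 fold change of 0.13 ± 0.27 (SE, adjusted p = 0.668). Its row XM_006540376.2 had 0 to 15 counts per library and was at 0 in some of each culture, so a change in that row was not detectable at this depth.

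Set side by side by amino acid, the cytosolic enzyme had the lower log2 fold change of EN over CV in 14 of 17 pairs, with a median difference of -0.70. Eprs enters as the partner of both Ears2 and Pars2, and Farsa and Farsb each as a partner of Fars2. The widest gap was that of leucine, -1.42 in Lars against 1.50 in Lars2. Both members fell in valine (-2.44 in Vars, -1.57 in Vars2) and in methionine (-1.23 in Mars, -0.94 in Mars2), among other pairs. The order was the other way in alanine (-0.33 in Aars, -0.77 in Aars2), asparagine (-0.66 and -0.98) and tyrosine (-1.10 and -1.54). In EN against ENR the cytosolic enzyme had the lower change in 10 of 17 pairs and the higher in 7, with a median difference of -0.15. In CV against ENR it had the lower change in 2 and the higher in 15, with a median difference of 0.56. The differences within pairs were described and not tested.

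The 3 comparisons share libraries, so the next values are each comparison's own and not independent. Against ENR, EN had 19 of 21 cytosolic transcripts lower and 0 higher, with Qars (-0.10, adjusted p = 0.0727) and Sars (-0.063, adjusted p = 0.228) not passing, where 72.7% of all transcripts changed, 37.2% lower and 35.5% higher. Mitochondrial transcripts were lower in 11 of 17 and higher in 1, Lars2 (1.15 ± 0.15, SE, adjusted p = 5.24e-06). The count of 0 higher was the same with DESeq2 and at an unadjusted p under 0.05. The falls were led by Vars (-2.41) and Yars2 (-1.81). With spike-in library sizes 21 cytosolic transcripts were lower and 0 higher, and 15 mitochondrial ones lower and 1 higher. There the median of all transcripts was -0.52, with 4275 of 9288 lower and 1094 higher. On copies, where the median of all transcripts was +0.88, 1 cytosolic transcript was lower and 4 higher, and 1 mitochondrial was lower and 4 higher, against 8.49% lower and 59.2% higher of all.

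CV and ENR differ by the added CHIR99021 and valproic acid, whose effects cannot be told apart from each other or from the change in cell types. In CV against ENR 11 of 21 cytosolic transcripts were higher and 0 lower, where 60.0% of all transcripts changed, 30.2% higher and 29.8% lower. DESeq2 called 10 higher and 1 lower, and edgeR at an unadjusted p under 0.05 gave 14 higher and 1 lower. The rises were led by Gars (0.62 ± 0.041, SE, adjusted p = 3.37e-09), Yars (0.61 ± 0.080, SE, adjusted p = 7.52e-06) and Mars (0.51 ± 0.055, SE, adjusted p = 9.28e-07). Vars, which fell the most in EN, did not differ beyond the spread here (0.029 ± 0.059, SE, adjusted p = 0.673). Mitochondrial transcripts went the other way, 7 lower and 1 higher, Nars2 at 0.42 ± 0.061 (SE, adjusted p = 1.96e-05), led among the falls by Sars2 NM_023637.3 (-0.91, low counts), Ears2 (-0.56 ± 0.076, SE, adjusted p = 1.04e-05) and Wars2 (-0.54 ± 0.11, SE, adjusted p = 0.000398). With spike-in library sizes 0 cytosolic transcripts passed in CV against ENR and 2 mitochondrial ones were lower, against 11.2% higher and 17.2% lower of all, and on copies 0 of either passed, against 15.2% higher and 4.96% lower.

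Across the 3 cultures, the mean CPM ran CV above ENR above EN in 17 of 21 cytosolic transcripts, against 23.2% of all transcripts. Among mitochondrial transcripts the mean was highest in ENR in 11 of 17, against 27.3% of all, in CV in 4 (Iars2, Mars2, Nars2 and Vars2) and in EN in 2 (Fars2 and Lars2). In the cytosolic group only Dars, Farsa, Qars and the XM_006531519.2 row of Kars were highest in ENR. Means that differ by less than the spread enter these counts too. The orders are those of CPM and depended on the scale. On copies several members had another order, among them Aars, Cars2 and Tars2 with the highest mean in EN. Others, such as Lars and Yars2, kept their order on copies.

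Other genes of tRNA charging and processing were read from lists of known members, to be set against the 41.2% of all transcripts that fell and the 35.2% that rose in EN against CV. Of the complex scaffold, Eef1e1 fell (51.1 ± 1.66 CPM in CV, 22.4 ± 2.80 in EN; -1.19 ± 0.076, SE, adjusted p = 7.52e-10) and Aimp2 fell (-0.50 ± 0.080, SE, adjusted p = 2.93e-05), while Aimp1 was 142 ± 4.36 CPM in CV and 128 ± 13.4 in EN and did not pass (-0.16 ± 0.059, SE, adjusted p = 0.0225). Of 9 transcripts of other charging enzymes, among them the amidotransferase that makes glutaminyl-tRNA in mitochondria, 2 rose and 3 fell in EN against CV, both shares below those of all transcripts. The rise was led by Mtfmt, the mitochondrial methionyl-tRNA formyltransferase (0.35 ± 0.082, SE, adjusted p = 0.00100), and the fall by Gatb, a subunit of that amidotransferase (-1.45 ± 0.093, SE, adjusted p = 7.55e-10). Of 8 editing and recycling transcripts 1 rose, Dtd2 (0.53 ± 0.11, SE, adjusted p = 0.000567), and 4 fell, led by Dtd1 (-1.67 ± 0.11, SE, adjusted p = 1.68e-09), both of them deacylases that clear wrongly charged tRNA. On the copies scale the scaffold median was +0.27, with none of its 3 transcripts past the test, and the editing list had 3 higher and 1 lower.

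Of 24 tRNA maturation transcripts 21 fell and 3 passed the test in neither direction, with a median of -0.90 against -0.08 over all transcripts, and the largest fall was Rpp38, a protein of RNase P (-3.14 ± 0.18, SE, adjusted p = 1.71e-10). Of 58 tRNA modification transcripts, 41 fell and 6 rose, with a median of -0.88. Trdmt1, a tRNA cytosine methyltransferase, led the falls (-3.32 ± 0.16, SE, adjusted p = 2.99e-11), and Tprkb, of the complex that makes threonylcarbamoyl-adenosine, led the rises (1.26 ± 0.058, SE, adjusted p = 1.42e-11). Of 24 transcripts of the amino acid response, 15 fell and 5 rose, with a median of -1.02. Phgdh, the entry enzyme of serine synthesis, went from 204 ± 13.5 CPM in CV to 106 ± 2.08 in ENR and 2.53 ± 0.607 in EN (-6.36 ± 0.092, SE, adjusted p = 2.85e-17). Cth, which makes cysteine from cystathionine, rose from 70.3 ± 3.69 to 365 ± 19.4 CPM (2.38 ± 0.049, SE, adjusted p = 9.68e-16). On the copies scale the counts were 7 lower and 17 in neither direction for maturation, 14 lower and 10 higher for modification, and 9 lower and 8 higher for the amino acid response, against 13.5% lower and 47.6% higher of all transcripts. No list was tested as a set.

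Cell type markers moved with the same comparison. All 7 stem cell and all 8 proliferation marker transcripts fell in EN against CV, and all 8 enterocyte, 4 goblet, 4 enteroendocrine and 4 tuft markers rose, while 1 Paneth marker rose and 3 fell. Proliferation markers summed to 851 to 879 TPM in CV, 979.9 to 1020 in ENR and 168 to 183 in EN, and stem cell markers to 302 to 337, 931 to 1019 and 18.4 to 21.2. Between CV and ENR the stem cell markers did not move together, 2 higher and 4 lower in CV, from Cd44 (147 ± 9.75 CPM in CV, 36.1 ± 3.15 in ENR) to Olfm4 (10.9 ± 6.42 in CV, 1229 ± 61.7 in ENR). Enterocyte markers summed to 19190 to 20190 TPM in CV, 9645 to 11040 in ENR and 51330 to 57670 in EN. Of 9 non-epithelial markers 6 were in the table, summing to 4.04 to 5.67 TPM in CV, 6.45 to 7.72 in ENR and 16.4 to 20.8 in EN. Of the 5 tested in EN against CV, Vim (a log2 fold change of 2.97, edgeR adjusted p = 1.31e-11) and Ptprc, a leukocyte marker (0 to 0.133 CPM in CV, 1.71 to 3.31 in EN, adjusted p = 2.16e-07), were higher and Des (1.69 to 3.84 CPM in CV, 0 to 0.178 in EN, adjusted p = 9.68e-06) was lower, and Cd3e was at or under 3 counts in each culture. The part of the mix of cell types in the synthetase values was not tested.

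Chromatin was read at start sites. ATAC measures how open chromatin is, H3K27ac marks active promoters and enhancers, H3K4me3 marks promoters and H3K27me3 marks Polycomb-silenced genes. Of 94469 deposited regions, 36 held or came within 500 bp of an annotated member start, covering all 36 genes, with 2 at Rars and 1 shared by Hars and Hars2. The unit is the authors' normalized score per region, tested with limma on log2(score + 1) at an adjusted p under 0.05. Summed over all regions, ATAC scores rose without overlap from CV (1752385 to 1840402) to EN (1993594 to 2109261), so the scores were not equal in total between cultures. H3K27ac scores rose likewise, from 1345873 to 1406651 in CV to 1622103 to 1760511 in EN. So did H3K4me3 scores, from 817265 to 940440 in CV to 984840 to 1100967 in EN.

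Of the 36 regions, 15 changed in ATAC between CV and EN, 9 higher and 6 lower in EN, near the background of start-site regions, 34.6% changed, 19.1% higher and 15.5% lower. After quantile normalization 6 were higher and 10 lower, and the median log2 fold change moved from +0.14 to -0.10. The lower regions were at Vars, Vars2, Hars with Hars2, Yars, Nars2 and Mars. At Vars (mm9 chr17:35137606-35138842, which also holds the start of D17H6S56E-5), the scores were 26, 34, 28 and 22 in CV, 41, 37, 29 and 37 in ENR and 9, 20, 20 and 13 in EN, at -0.84 ± 0.23 (SE, adjusted p = 0.00720). The EN values lay below all CV values there. At Vars2 (chr17:35803615-35804954) the scores were 51, 51, 56 and 63 in CV, 37, 43, 42 and 41 in ENR and 51, 32, 37 and 36 in EN, at -0.51 ± 0.15 (SE, adjusted p = 0.0131), with 1 EN value level with the lowest CV values. At Nars2 (chr7:104099723-104101175) they were 153, 127, 120 and 133 in CV, 113, 109, 123 and 106 in ENR and 104, 90, 100 and 100 in EN without overlap between CV and EN, at -0.43 ± 0.10 (SE, adjusted p = 0.00316).

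The higher regions were at Rars2, Tars, Mars2, Iars, Fars2, Farsb, Gars, Aars and Sars2. Tars (chr15:11328040-11329810) had scores of 227, 187, 208 and 193 in CV, 224, 189, 231 and 209 in ENR and 304, 299, 360 and 331 in EN, with EN above every other library, at 0.66 ± 0.092 (SE, adjusted p = 2.00e-05). Iars (chr13:49776800-49778584) had 122, 123, 117 and 121 in CV, 132, 131, 117 and 116 in ENR and 192, 167, 166 and 168 in EN, again with EN highest, at 0.51 ± 0.091 (SE, adjusted p = 0.000236). Rars2 (chr4:34561385-34563194), whose region also holds the start of Orc3, had 88, 86, 71 and 57 in CV, 79, 87, 78 and 79 in ENR and 109, 105, 144 and 139 in EN, at 0.72 ± 0.14 (SE, adjusted p = 0.000670). Regions at Fars2 and Sars2 also hold start sites of Lyrm4 and Mrps12, and that at Yars holds S100pbp.

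Set beside RNA, all 6 lower regions lay at genes with a transcript that fell (Hars, Mars, Nars2, Vars, Vars2 and Yars), while Hars2 did not pass in RNA. RNA also fell in 17 of the 22 pairings of a transcript with an unchanged region, where Rars enters with each of its 2 regions. Of all 38 transcripts, 28 fell. The higher regions lay at 6 transcripts that fell (Aars, Farsb, Gars, Iars, Mars2 and Tars), 2 that rose (Fars2 and Rars2) and both rows of Sars2, which passed in neither direction. The 4 of these with a TGATGNAA match in the promoter (Aars, Gars, Iars and Tars) had higher ATAC scores and, on TMM-normalized counts, lower RNA in EN. Yars, with a match, had both lower, and Farsb and Mars2, without a match, had higher scores and lower RNA. On copies the RNA of Aars had a positive sign (0.45). Tars (-0.10, limma adjusted p = 0.734), Yars (-0.38, adjusted p = 0.186) and Mars2 (-0.22, adjusted p = 0.421) did not pass on copies, while Gars, Iars and Farsb stayed lower. A link between the motif and these changes was not tested. At Lars2, with the largest rise in RNA, the ATAC scores were 37, 36, 53 and 55 in CV, 39, 52, 58 and 69 in ENR and 68, 47, 62 and 47 in EN and overlapped, at 0.31 ± 0.19 (SE, adjusted p = 0.233).

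**Figure D4:**
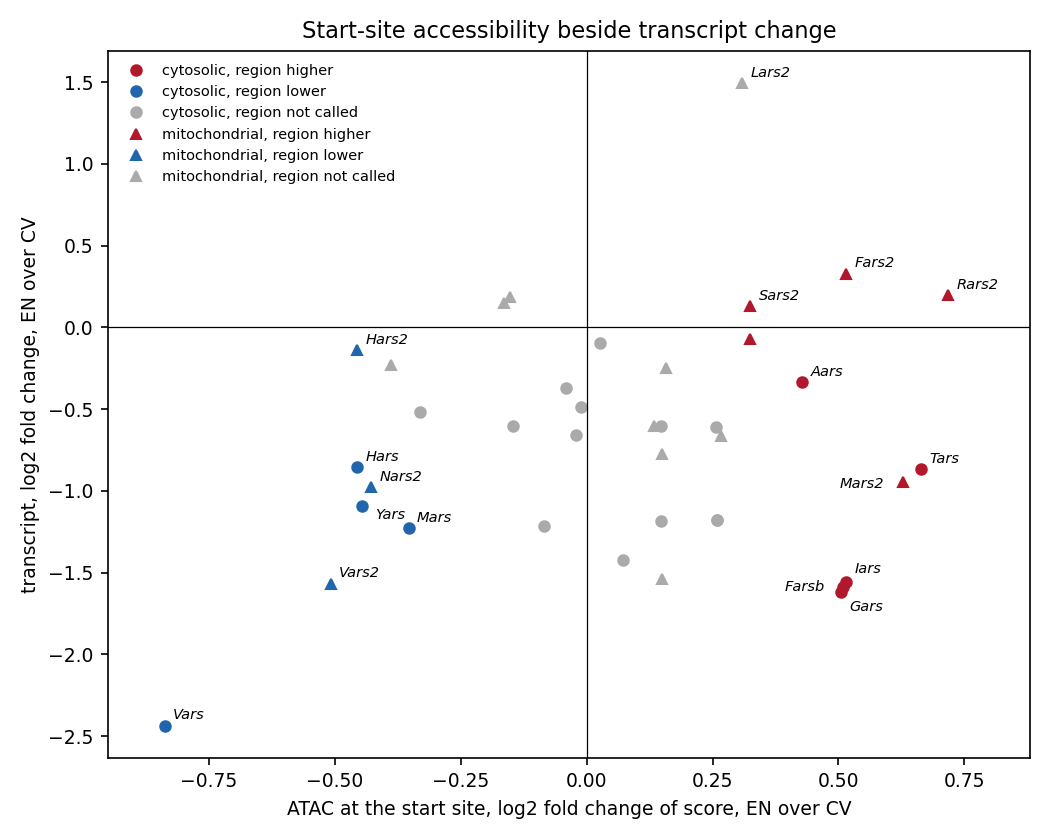
Log2 fold change of the ATAC score at the start-site region (horizontal axis) beside that of the RNA (vertical axis), EN against CV, for each synthetase transcript (circles cytosolic, triangles mitochondrial), with regions past an adjusted p under 0.05 in red if higher and blue if lower. Vars lies lowest on both axes (RNA -2.44, ATAC -0.84), Tars and Iars have lower RNA with higher ATAC scores, and Lars2 lies at the top (RNA 1.50) with an ATAC change that did not pass. Quantile normalization moves the median ATAC change from +0.14 to -0.10. On copies the RNA change of Tars (-0.10) does not pass the test, while that of Iars does.

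In H3K27ac 2 of 36 regions changed, both higher in EN, against 20.6% of start-site regions changed, 16.9% higher and 3.73% lower, and 5 were higher and 3 lower at an unadjusted p under 0.05. They were Eprs, with scores of 66, 72 and 88 in CV and 117, 185 and 152 in EN (0.98 ± 0.24, SE, adjusted p = 0.00844), and Aars2, with 3, 21 and 31 in CV and 35, 70 and 50 in EN (1.84 ± 0.52, SE, adjusted p = 0.0253). Both had lower RNA in EN on TMM-normalized counts. On copies neither passed limma's test (Eprs -0.45, adjusted p = 0.116, and Aars2 -0.059, adjusted p = 0.819). The H3K27ac calls rested on 3 libraries per culture. Without EN replicate 4 there was 0, without EN replicate 3 there was 1 lower and 0 higher, and without CV replicate 3, EN replicate 2, ENR replicate 2 or ENR replicate 4 there was 1 higher, and after quantile normalization 1 region was higher and 4 lower. CV cells had also been given an inhibitor of histone deacetylases.

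In H3K4me3 0 regions passed limma's test, against 10.0% of start-site regions, with 2 higher and 1 lower at an unadjusted p under 0.05. In H3K27me3 0 regions passed as well, against 0.345%, with 0 at an unadjusted p under 0.05, and the mean scores of the member regions lay between 2 and 21.7. A count of 0 here does not show that the marks were equal.

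Hnf4g, a nuclear receptor of enterocytes, was profiled by 1 library per culture, so its reads are a description without a test. Reads in regions numbered 84340 for CV, 352600 for ENR and 1816497 for EN. The members' median was 0, 12.8 and 17.3 RPM (reads relative to all reads in regions of the library), close to the 0, 14.2 and 20.4 of all start-site regions. The regions of Vars and Vars2 had the most reads of the members in EN, 127 each, or 69.9 RPM, with an exact Poisson interval of 106 to 151 reads that covers counting error only. This lies below the 85.9 RPM of the 90th percentile of start-site regions in EN.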

How the data were processed

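The synthetase genes and the other gene lists were chosen with earlier results of these data known. The RNA table that the authors deposited gives expected counts estimated by kallisto for each transcript (0.43.0 per the labels) against RefSeq transcripts whose proteins had been quantified, beside TPM deposited as kallisto gave it and mRNA copies that the authors deposited as a signal scaled to 92 spike-in transcripts. Reads from a transcript that was not in that index can be lost or given to a listed one. For chromatin, reads had been aligned to mm9 with BWA, duplicates removed with Picard and peaks called with MACS2 2.0, and each library's score at every union peak was deposited by the authors after normalization, as whole numbers. H3K27me3 regions had been extended by 1000 bp. The Hnf4g values deposited by the authors are unnormalized counts at the same regions.

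Counts were rounded and compared in 1 fit of 12 libraries with edgeR 4.0.16 (glmQLFTest, TMM, R 4.3.3), spike-ins left out, with Benjamini-Hochberg adjustment over 9288 transcripts and a threshold of 0.01. Scores were compared with limma 3.58.1 with a trend on log2(score + 1), over regions above 0 in at least 3 libraries, with a threshold of 0.05. Standard errors are those of the fitted log2 fold changes. Libraries held 5630951 to 8859744 counts, where 3 counts are 0.362 to 0.642 CPM and spike-ins took 0.837% to 1.36%. No pair of libraries held identical counts. Each test was also run on simulated data, where the simulated chromatin changes were larger than those of the members. Those runs do not show how well smaller changes are found. Alternatives were DESeq2 1.42.0, other normalizations, filters, thresholds, TPM with pseudocounts of 1 and 5, the copies, a replicate block and each library left out. Named in full were the 3 largest rises and falls among changed transcripts of each compartment from CV to EN and the complex members, and from each list the largest rise and fall. Gene positions and start sites are from GENCODE on mm9. Transcripts were matched to the genome with blastn 2.17.0+. Where the planned choices included signatures in protein sequences, these were not run. Further histone libraries and the RNA libraries from wild-type and Hnf4g-knockout organoids in ENR were not analysed here.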

Additional observations from a re-analysis of the deposited data

Results flagged for a closer look

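A library was marked when its gap to the nearest of the other 3 libraries of its culture, divided by the range of the 4, exceeded Dixon's 95% critical value. Chance marks about 1 group in 20, and 5 of 114 groups of RNA values and 3 of 45 groups of ATAC scores at changed regions were marked. In RNA, Aars had 65.8 CPM in 1 EN library against a median of 73.0 in the others, Farsb 208 CPM in 1 CV library against 194, Rars 192 CPM in 1 CV library against 211, and the XM_006531519.2 row of Kars 15.0 CPM in 1 EN library against 19.6. The XM_006540376.2 row of Sars2 had 1.07 CPM in 1 EN library and 0 in the other 3. In ATAC, the region at Iars scored 192 in 1 EN library against 167, that at Yars 111 in 1 ENR library against 79, and that at Rars2 87 in 1 ENR library against 79. Leaving out any 1 library did not change the call of Aars, Farsb, Rars or Kars in EN against CV.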

How the results depend on the processing

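Of 421 values of single transcripts recomputed under settings that kept all libraries, 378 kept their direction and side of the threshold, and of 456 with 1 library left out 454 did, the exceptions being Cars2 without CV replicate 1 and Rars2 without EN replicate 4. The copies scale had the largest effect. It gave 4 changed cytosolic transcripts in EN against CV in place of 20, 7 mitochondrial in place of 11, 5 and 5 in EN against ENR in place of 19 and 12, and 0 and 0 in CV against ENR in place of 11 and 8. On copies the log2 fold change of EN over CV was 0.45 for Aars, 0.29 for Dars, 0.42 for Farsa, 0.15 for Nars, 0.19 for Rars, 0.32 for Sars, 0.17 for Wars, 0.12 for Iars2, 0.096 for Pars2 and 0.54 for Tars2. Spike-in library sizes gave 0 cytosolic and 2 mitochondrial changes in CV against ENR, and -0.092 for Fars2 and -0.22 for Rars2 in EN against CV. On TPM the median of all transcripts was -0.34 with a pseudocount of 1 and -0.25 with 5. There Rars2 was -0.12 with either pseudocount, Fars2 lost its call, and Qars, Hars2 and Wars2 gained 1 as lower. The cause of these differences was not tested. With 1 library left out, the counts were 20 and 10 to 12 in EN against CV, 19 and 12 to 13 in EN against ENR, and 9 to 13 and 7 to 9 in CV against ENR.

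In ATAC the 15 changed regions became 9 without the trend, 8 at an adjusted p under 0.01 and 11 to 15 with 1 library left out. In H3K27ac the 2 became 5 after quantile normalization, 0 without the trend, 1 at an adjusted p under 0.01 and 0 to 2 with 1 library left out. Replicate numbers did not pair the RNA libraries (mean correlation of deviations 0.013 for the same number, lowest -0.059), nor the chromatin libraries by the same rule that every pair exceed 0.1, although ATAC came near it (mean 0.17, lowest 0.070, against -0.056 for other numbers, with 7 of 12 libraries closest to their own number) and H3K4me3 had 6 of 8 libraries closest to theirs (mean 0.050, lowest -0.081), a hint from the data and not the design. With the replicate block 20 cytosolic and 11 mitochondrial transcripts changed in EN against CV, 19 and 12 in EN against ENR, 12 and 7 in CV against ENR, 17 regions in ATAC and 0 in H3K27ac. Protein signatures were not run, because no protein sequences were at hand. The second row of Sars2, at 0 to 15 counts, is limited by depth.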
